A study of Homo sapiens with 12 samples.

Results

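Kinesins are motor proteins that hydrolyse ATP to move along microtubules, or to shorten them. Mitotic kinesins build and position the spindle, move chromosomes and drive the final cut between daughter cells, and their mRNAs accumulate in dividing cells. Transport kinesins carry vesicles, endosomes, lysosomes, mitochondria and mRNA through cells whether or not they divide, and several are best known from neurons. The kinesin genes described here were the protein-coding genes whose symbol is KIF or KIFC followed by a number, with or without a letter. There were 42 of them among the 57773 genes counted, and they were sorted by their known roles into 14 mitotic kinesins, 17 transport kinesins, 7 kinesins known from cilia or from the control of microtubule length, and 4 others.

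The mRNA of WI-38, a diploid fibroblast line from human fetal lung, was sequenced in 12 libraries. Each of 4 groups held 3 libraries, and all cells had been kept at population doubling levels of 15 to 25 and transfected with 25 nM of a pool of siRNAs. Proliferating cells received the non-targeting pool siCtrl and the vehicle DMSO for 8 days. The other groups received 50 µM etoposide, a topoisomerase poison that damages DNA and makes these cells senescent, for 8 days, with siCtrl, with siNTRK2 directed at the mRNA of the receptor TrkB, or with siBDNF directed at the mRNA of its ligand BDNF. The cells are 1 line, and each target was silenced with 1 pool, so the effect of a pool on other mRNAs cannot be told apart from that of its target. Levels are given as normalized CPM, that is, counts per 1000000 counts after TMM scaling of each library. A gene was called where the adjusted p of edgeR's quasi-likelihood test over 21518 tested genes was under 0.05, and was past the fold cutoff where its log2 fold change was also over 1 in size.

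The libraries held 31567912 to 72328151 counts. The target mRNAs followed the labels, with NTRK2 at 0 counts in all 3 siNTRK2 libraries against 7 to 15 counts in siCtrl-transfected senescent cells. BDNF was at 44.3 to 48.8 CPM with siBDNF, against 156.7 to 169.1 CPM with siCtrl. All 13 lung fibroblast markers examined, such as collagens and vimentin, were above 3 counts in each group. Between siCtrl-transfected senescent and proliferating cells 10 of them were called lower and 2 higher, against 28.3% and 29.8% of all tested genes. Compared with siCtrl in senescent cells, 9 were higher and 1 lower with siNTRK2, against 11.1% and 10%. With siBDNF 2 were higher and 7 lower, against 10.3% and 10.2%. The summed levels of 7 epithelial markers (17.9 to 60.8 CPM), 4 endothelial markers (24.6 to 78 CPM) and 5 leukocyte markers (0.52 to 3.04 CPM) were low, and the epithelial and leukocyte sums were higher in all senescent groups than in proliferating libraries. The endothelial sum was lower, at 24.6 to 40.9 CPM in the senescent groups against 75.2 to 78 CPM in proliferating libraries. Most of it came from TEK, which was lower in siCtrl-transfected senescent cells (log2 fold change -1.2), while VWF (1.205) and KDR (1.89) were called higher. In proliferating cells CDH1, KRT5, KRT14, SFTPC, CDH5, PTPRC, CD3E and LYZ lay at or under 3 counts in every library. In senescent cells SFTPC did so with siCtrl and siNTRK2, and KRT5 with siNTRK2 and siBDNF. PTPRC was at 0 counts in the proliferating libraries and at 60, 46 and 56 counts in the siCtrl-transfected senescent libraries. The part of other cell types in the values below was not tested.

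Senescent and proliferating cells, both with siCtrl, were compared to ask how kinesin mRNAs differ once cells have stopped dividing. All 12 mitotic kinesins with enough counts to test were lower in senescent cells, and all 12 were past the fold cutoff. Among all tested genes 28.3% were called lower and 5.16% were also past the cutoff. The median mitotic kinesin was 7.61-fold lower (log2 fold change -2.93, range -4.44 to -1.44), beside a median log2 fold change of 0.025 over all tested genes. In bulk RNA, fewer cells that express a gene and less of its mRNA per cell cannot be told apart.

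KIF20A, which brings the chromosomal passenger complex to the central spindle, had the largest difference of the 12. The gene (ENSG00000112984) runs along the plus strand of chromosome 5 between 137514408 and 137523412 in hg19. Its level was 52.3, 51.1 and 52.5 CPM in the proliferating libraries and 2.44, 2.57 and 2.16 CPM in the siCtrl-transfected senescent libraries. It was therefore 21.7-fold lower in senescent cells (log2 fold change -4.44, SE 0.096, adjusted p = 6.05e-22 from edgeR), and the groups did not overlap. KIF23, its relative in the kinesin-6 family and the motor of the centralspindlin complex, was at 38.9, 37.6 and 35.6 CPM in proliferating and 8.16, 9.11 and 9.12 CPM in senescent cells, 4.25-fold lower. KIF20B, which acts late in cytokinesis, ranged from 8.66 to 12 CPM and from 1.59 to 2.55 CPM, 5.02-fold lower.

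Motors that cross-link and sort spindle microtubules followed the same direction. KIF11, also called Eg5, which pushes the spindle poles apart, was at 27.7, 27.1 and 24.5 CPM in proliferating and 3.72, 4.91 and 5.69 CPM in senescent cells (log2 fold change -2.47, SE 0.12). KIF15, which can take over part of this work, was at 5.76, 5.63 and 5.9 CPM and at 0.819, 0.758 and 0.658 CPM (-2.95, SE 0.19). KIFC1, a minus-end motor that gathers microtubules at the poles, was at 23, 23.8 and 25.5 CPM and at 2.17, 2.07 and 2.11 CPM (-3.51, SE 0.10). KIFC1 (ENSG00000237649) lies on chromosome 6 from 33359600 to 33377673, and 14% of its exon bases lie opposite the pseudogene RPL12P1.

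Kinesins that bind chromosomes or shorten microtubules were also lower. KIF4A, a chromokinesin that sets the length of the central spindle, was at 21.4, 21.8 and 19.6 CPM in proliferating and 2.32, 2.94 and 3.1 CPM in senescent cells, 7.51-fold lower. KIF22, the chromokinesin that pushes chromosome arms outward, was at 27.5, 24.5 and 27.9 CPM and at 11.1, 9.21 and 9.1 CPM. At 2.71-fold lower it had the smallest difference among the mitotic kinesins. KIF2C, or MCAK, which takes microtubules apart at kinetochores, was at 27.4, 29.1 and 27.7 CPM and at 2.85, 3.07 and 2.25 CPM, 10.3-fold lower. The related genes of the kinesin-8 family differed in size among themselves. KIF18B, which trims astral microtubules, was at 13.8, 11.9 and 12.8 CPM and at 1.09, 0.861 and 1.35 CPM, 11.6-fold lower, whereas KIF18A, which steadies chromosomes at the metaphase plate, ranged from 11.8 to 13.5 CPM and from 4.42 to 4.55 CPM, 2.87-fold lower. KIF14, a kinesin-3 motor of cytokinesis, was at 8.43, 7.68 and 7.09 CPM and at 0.979, 0.93 and 0.779 CPM, 8.63-fold lower.

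The adjusted p of these 12 mRNAs ran from 6.05e-22 for KIF20A to 2.36e-12 for KIF18A in edgeR's test, and no senescent library reached a proliferating one for any of them. The remaining mitotic kinesins had too few counts to test. KIF2B, a relative of KIF2C, was at 0 counts in all 12 libraries. KIF4B, an intronless near copy of KIF4A, had 0 to 12 counts per library, and reads of the 2 genes may not have been told apart.

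**Figure D1:**
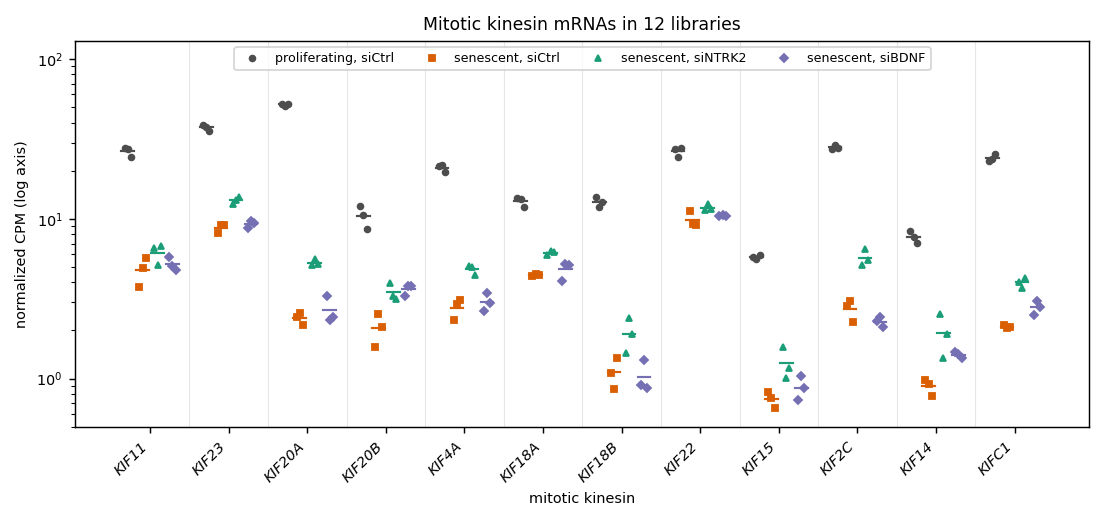
Normalized CPM of the 12 tested mitotic kinesins (log axis) in each library, with points for libraries and short lines for the mean of 3 libraries in each of 4 groups. Every proliferating point lies above every senescent point of the same gene, and for 11 of 12 genes the siNTRK2 points lie above the siCtrl-transfected senescent points, with KIF11 as the exception.

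Because the mitotic kinesins moved together, their promoters were searched for a pair of short elements known from genes expressed late in the cell cycle. These were the cell cycle homology region (CHR), searched as TTTGAA or TTCGAA, and the CCAAT box, known as a site of the factor NF-Y, both on either strand. The search covered RefSeq windows of GRCh38.p14 from 250 bases before to 50 bases after the annotated start, which were given for 34 of the 42 kinesin genes. A CHR match was found for 11 of 14 mitotic kinesins (78.6%), against 17.5% of 15843 protein-coding genes with a window and 1 of 12 transport kinesins (8.33%). CCAAT was found for 11 of 14 mitotic kinesins (78.6%), 4 of 12 transport kinesins (33.3%) and 42.1% of protein-coding genes. Both were found for 10 of 14 mitotic kinesins (71.4%), against 7.28% of protein-coding genes. These shares are descriptions of letters in a window, and binding was not measured. The 150 bases before the start are shown for 8 mitotic and 2 transport kinesins, 5′ to 3′ along the gene, with the matches in capitals (ATTGG is CCAAT, and TTCAAA is TTTGAA, read on the other strand). They show how closely the 2 elements stand in KIF11, KIF23, KIF4A, KIF18A and KIF22, and that 1 or both are missing from KIF15, KIF20A, KIF2C and KIF1C.
KIF11 (chr10:92592980-92593129, plus strand): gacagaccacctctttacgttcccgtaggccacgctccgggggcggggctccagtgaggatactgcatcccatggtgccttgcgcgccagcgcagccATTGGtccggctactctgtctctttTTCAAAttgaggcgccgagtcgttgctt
KIF23 (chr15:69414199-69414348, plus strand): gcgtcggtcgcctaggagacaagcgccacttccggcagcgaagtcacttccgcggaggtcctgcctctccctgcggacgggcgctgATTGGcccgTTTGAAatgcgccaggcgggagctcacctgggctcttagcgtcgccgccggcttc
KIF4A (chrX:70289954-70290103, plus strand): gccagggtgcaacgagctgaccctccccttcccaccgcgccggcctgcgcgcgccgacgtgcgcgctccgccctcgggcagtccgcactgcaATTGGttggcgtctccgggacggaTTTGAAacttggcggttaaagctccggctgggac
KIF18A (chr11:28108157-28108306, minus strand): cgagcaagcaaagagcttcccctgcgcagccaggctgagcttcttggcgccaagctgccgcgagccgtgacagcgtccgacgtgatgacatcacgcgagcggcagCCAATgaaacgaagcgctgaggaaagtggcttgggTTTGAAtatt
KIF22 (chr16:29790601-29790750, plus strand): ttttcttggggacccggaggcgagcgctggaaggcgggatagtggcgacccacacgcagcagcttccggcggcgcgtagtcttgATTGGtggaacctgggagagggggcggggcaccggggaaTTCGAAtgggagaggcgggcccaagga
KIF15 (chr3:44761644-44761793, plus strand): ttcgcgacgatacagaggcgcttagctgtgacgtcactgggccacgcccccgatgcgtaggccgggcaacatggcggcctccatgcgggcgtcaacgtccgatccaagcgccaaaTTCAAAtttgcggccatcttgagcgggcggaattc
KIF20A (chr5:138178962-138179111, plus strand): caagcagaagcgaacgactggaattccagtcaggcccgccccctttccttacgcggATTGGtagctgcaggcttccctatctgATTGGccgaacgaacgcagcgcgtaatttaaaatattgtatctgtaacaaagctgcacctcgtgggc
KIF2C (chr1:44739687-44739836, plus strand): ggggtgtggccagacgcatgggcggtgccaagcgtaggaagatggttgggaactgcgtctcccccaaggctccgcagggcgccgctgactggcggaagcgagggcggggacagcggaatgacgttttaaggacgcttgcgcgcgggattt
KIF1C (chr17:4997800-4997949, plus strand): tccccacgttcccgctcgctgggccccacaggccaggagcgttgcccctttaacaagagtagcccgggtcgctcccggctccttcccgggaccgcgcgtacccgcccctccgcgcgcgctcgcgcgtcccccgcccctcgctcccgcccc
KIF5B (chr10:32056426-32056575, minus strand): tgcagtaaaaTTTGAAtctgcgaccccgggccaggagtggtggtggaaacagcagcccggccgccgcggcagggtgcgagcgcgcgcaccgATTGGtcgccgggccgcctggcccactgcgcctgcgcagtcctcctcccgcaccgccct

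KIF11, KIF23, KIF4A, KIF18A and KIF22 each held CCAAT upstream of a CHR match within these bases. KIF15 held only a CHR match and KIF20A only CCAAT, in 2 copies, so the member with the largest difference had no CHR match in its window. KIF2C, which was 10.3-fold lower in senescent cells, held neither. The 14 mitotic kinesins searched include KIF4B and KIF2B, which had too few counts to test. KIF4B, the near copy of KIF4A, held both in its window although its counts were near 0, and KIF2B held neither. Among transport kinesins KIF5B, whose mRNA was not called between senescent and proliferating cells, was the only one with both, and KIF1C, which was higher in senescent cells, held neither. Outside both classes, the window of KIF24 held 3 copies of CCAAT and a CHR match.

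**Figure D2:**
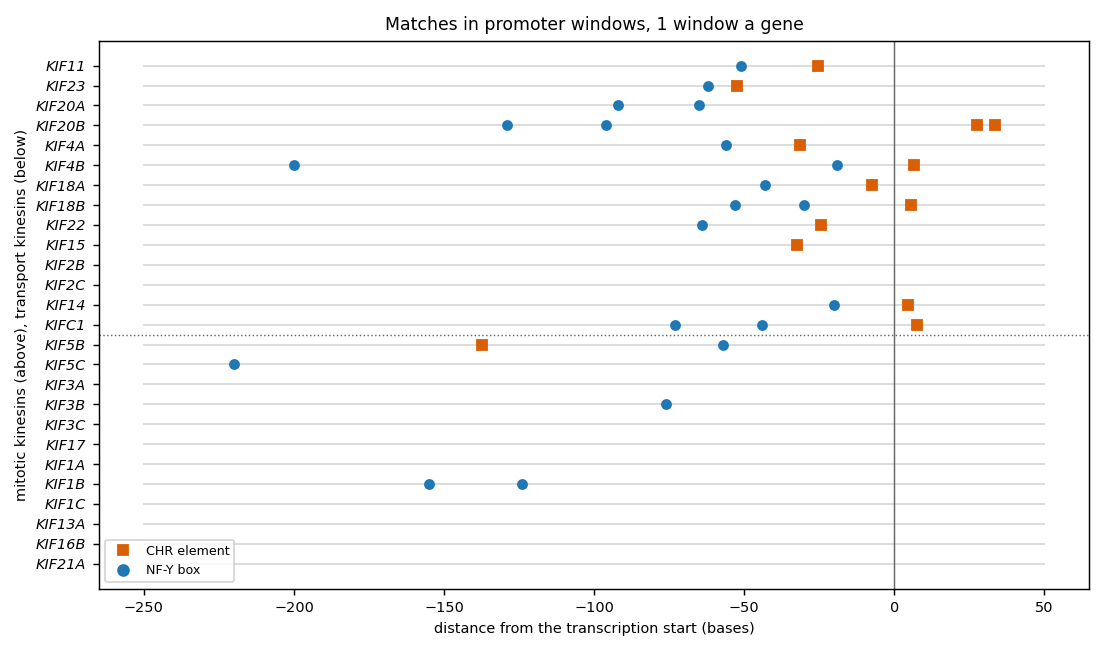
Position of CHR matches (squares) and of NF-Y (CCAAT) boxes (circles) in bases from the annotated start, for 14 mitotic and 12 transport kinesins, with 1 window drawn for each gene. In 10 mitotic kinesins a box lies upstream of a CHR match, and only KIF5B among transport kinesins carries both.

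Transport kinesins did not all move in 1 direction between senescent and proliferating cells, but more of them were higher in senescent cells than lower. The log2 fold change was above 0 for 13 of the 17. Of 17 tested, 9 were higher, 2 were lower and 6 were not called, against 29.8% of all tested genes called higher and 28.3% called lower. Their median log2 fold change was 0.34. KIF1A had the highest value of the 17 also at its lower bound, so setting it there could not move the median. Past the fold cutoff were 2 of the 17, KIF1A and KIF5C, against 11.6% of all tested genes in that direction.

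Per kilobase of exon, the highest levels in siCtrl-transfected senescent cells were those of KIF1C (39.6 CPM per kb, range 38.4 to 41.4), KIF5B (36.2, range 33.8 to 38.6) and KIF3B (18, range 17.7 to 18.4). KIF1C and KIF5B overlapped in their ranges, and both stood apart from KIF3B. In proliferating cells the order was KIF5B (34.6 CPM per kb), KIF1C (27.7), the mitotic KIF20A (13.5) and KIF3B (11.7), with no overlap between neighbours, whereas KIF20A in senescent cells was at 0.62 CPM per kb. With the length of the canonical transcript in place of all exons, KIF1C stood above KIF5B in senescent cells without overlap, and KIFC3 passed KIF20A in proliferating cells with overlapping ranges.

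KIF1C, a kinesin-3 motor that moves integrin vesicles and mRNA, was at 227.3, 233.5 and 252.5 CPM in proliferating and 329.8, 355.4 and 333.9 CPM in senescent cells. It was 1.43-fold higher in senescent cells (log2 fold change 0.52, SE 0.05, adjusted p = 2.42e-09 from edgeR), with no overlap. KIF3B, the partner of KIF3A in heterotrimeric kinesin-2, was at 72.4, 71.6 and 70.3 CPM and at 108.3, 112.6 and 108.3 CPM. This was 1.54-fold higher in senescent cells (0.62, SE 0.046, adjusted p = 1.5e-11 from edgeR). KIF3A itself ranged from 8.63 to 9.83 CPM and from 10.7 to 13.3 CPM (0.34, SE 0.088), and the alternative partner KIF3C was at 36, 37.3 and 37 CPM and at 47.7, 48.6 and 51.2 CPM (0.42, SE 0.05). The 3 heterotrimeric kinesin-2 motors were thus higher in senescent cells, while KIF17, the homodimeric kinesin-2, was 1.44-fold lower (log2 fold change -0.53, adjusted p = 5.61e-04 from edgeR). KIF5B, the kinesin-1 heavy chain of non-neuronal cells, was at 209.9, 209.5 and 189.5 CPM and at 198.5, 226.3 and 212.5 CPM. These groups overlapped and the mRNA was not called (0.07, SE 0.05, adjusted p = 0.278 from edgeR).

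KIF1A, KIF5C and KIF5A, which are best known from neurons, were present only at low levels. KIF1A and KIF5C had the largest folds among transport kinesins. KIF1A, which carries synaptic vesicle precursors, lies on the minus strand of chromosome 2 of hg19 from 241653178 to 241763710 (ENSG00000130294). It had 0 counts in all 3 proliferating libraries and 56, 68 and 68 counts in the siCtrl-transfected senescent libraries, 0.997, 1.17 and 1.18 CPM. Against a floor of 3 counts per library in proliferating cells it was at least 18.8-fold higher (adjusted p = 3.86e-10 from edgeR). KIF5C, a kinesin-1 heavy chain of neurons on chromosome 2 from 149632819 to 149883273 (ENSG00000168280), was at 0.161, 0.299 and 0.216 CPM in proliferating and 1.02, 0.654 and 0.709 CPM in senescent cells. It was 3.43-fold higher (log2 fold change 1.78, SE 0.4, adjusted p = 4.84e-04 from edgeR), without overlap but on only 8 to 57 counts per library. KIF5A, the other neuronal heavy chain, was not called (0.34, SE 0.38), at 0.413 to 0.792 CPM in these groups.

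The other transport kinesins differed by less than the fold cutoff. KIF13B and KIFC2 were higher in senescent cells by 0.28 and 0.41 on the log2 scale, and KIFC3, a minus-end motor, was lower by 1.15-fold. KIFC2 was not called without siCtrl-transfected senescent replicate 2 (adjusted p = 0.0769 from edgeR), and 17.8% of its exon bases lie opposite FOXH1. KIF21A, which slows microtubule growth at the cell edge, had a log2 fold change of 0.99 (SE 0.39, adjusted p = 0.0346 from edgeR), but its groups overlapped, and it was not called without proliferating replicate 2 (adjusted p = 0.251) or without senescent replicate 2 (adjusted p = 0.463). KIF1B, KIF13A, KIF16B and KIF21B were not called, with log2 fold changes from -0.12 to 0.25.

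**Figure D3:**
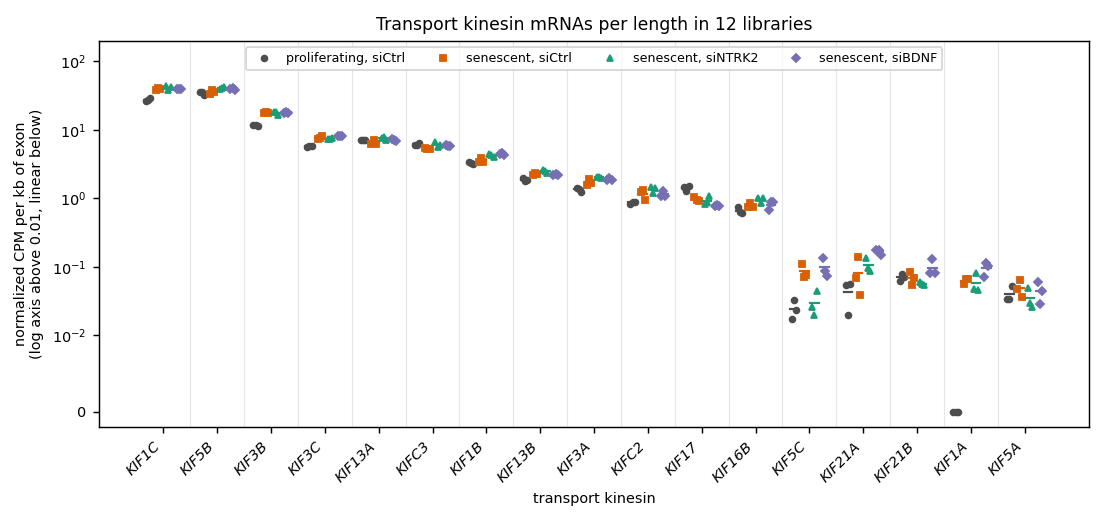
Normalized CPM per kilobase of exon of the 17 transport kinesins in each library, ordered by their mean in siCtrl-transfected senescent cells (log axis above 0.01, linear below). KIF1C and KIF5B lead the order in senescent cells, and KIF1A lies at 0 in the 3 proliferating libraries.

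Among kinesins of cilia and of microtubule length, 2 of 6 tested were higher and 3 lower in senescent cells, against 29.8% and 28.3% of all tested genes. KIF9, a kinesin of motile cilia, was 1.36-fold higher (log2 fold change 0.45, SE 0.1), and 14.8% of its exon bases lie opposite KIF9-AS1. KIF6, of the same family, had 1, 0 and 2 counts in proliferating and 7, 13 and 4 counts in senescent cells, a ratio of 7.58 (95% counting interval 2.3 to 39.3, Clopper-Pearson on the split of the counts). It was called and past the fold cutoff (adjusted p = 0.0139 from edgeR), but not without proliferating replicate 2 (adjusted p = 0.0907) or senescent replicate 2 (adjusted p = 0.0808). KIF2A and KIF24, the kinesin-13 relatives of KIF2C, were lower by 1.43-fold and 1.69-fold, beside 10.3-fold for KIF2C, and 18.7% of the exon bases of KIF2A lie opposite DIMT1. KIF7, a regulator of Hedgehog signalling at the ciliary tip, was 1.13-fold lower (adjusted p = 0.0277 from edgeR), with 10.8% of its exon bases opposite TICRR, and this call was lost without proliferating replicate 2 (0.0507), senescent replicate 1 (0.0532) or senescent replicate 3 (0.0984). KIF27 was not called (0.43, SE 0.21), and KIF19 had 0 to 10 counts per library and was not tested.

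Of the remaining kinesins, KIF26A was called higher in senescent cells (adjusted p = 0.00207 from edgeR), at 0 counts in the proliferating libraries and 3, 4 and 20 in the senescent libraries, at least 2.64-fold. Most of its counts thus came from 1 library. KIF26B, an atypical kinesin linked to cell polarity and Wnt5a signalling, was not called (-0.11, SE 0.14). KIF12 and KIF25 had 0 to 11 counts per library and were not tested.

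Across the whole family the makeup shifted from mitotic towards transport kinesins. The mitotic kinesins summed to 259.5 to 271.6 CPM in proliferating and 41.7 to 43.5 CPM in siCtrl-transfected senescent libraries, 23.1 to 23.7% and 3.9 to 4.1% of all kinesin counts. The transport kinesins summed to 794.6 to 798.2 CPM and 926.5 to 1007 CPM, 69.6 to 70.7% and 90.1 to 90.4% of kinesin counts. The sum over all 42 genes was 1124 to 1145 CPM in proliferating and 1027 to 1115 CPM in senescent libraries.

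The effect of silencing NTRK2 in senescent cells was asked by comparing siNTRK2 with siCtrl. All 12 tested mitotic kinesins were higher with siNTRK2, against 11.1% of all tested genes, and 3 of them, KIF20A, KIF14 and KIF2C, were past the fold cutoff, against 0.39%. The median log2 fold change was 0.77 (range 0.26 to 1.15), or 1.71-fold, beside -0.0024 over all tested genes. As a share of their mean level in proliferating cells, the mitotic kinesins stood at a median of 13.1% in siCtrl-transfected senescent cells, 23.2% with siNTRK2 and 16.7% with siBDNF, so that all remained below proliferating cells.

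KIF20A rose to 5.12, 5.6 and 5.21 CPM with siNTRK2, 2.22-fold above siCtrl (log2 fold change 1.15, SE 0.11, adjusted p = 1.95e-08 from edgeR). KIF2C rose to 5.15, 6.45 and 5.55 CPM (1.07, SE 0.12, adjusted p = 2.64e-07 from edgeR). KIF14 rose to 2.54, 1.35 and 1.9 CPM (1.12, SE 0.2, adjusted p = 1.83e-04 from edgeR). None of these siNTRK2 libraries overlapped the siCtrl libraries. KIFC1 was at 4.02, 3.71 and 4.26 CPM (0.92, SE 0.11), KIF4A at 5.07, 4.96 and 4.47 CPM (0.79, SE 0.12), and KIF18B at 1.44, 2.4 and 1.9 CPM (0.78, SE 0.2). KIF23 was at 12.5, 13.2 and 13.7 CPM (0.57, SE 0.076), and KIF15 at 1.57, 1.01 and 1.17 CPM (0.76, SE 0.21). All 5 rose without overlap, as did KIF20B (3.15 to 3.98 CPM; 0.74, SE 0.16) and KIF18A (5.95 to 6.33 CPM; 0.46, SE 0.11).

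The smallest changes were those of KIF22 and KIF11. KIF22 was at 11.3, 12.3 and 11.5 CPM with siNTRK2, just above siCtrl (0.26, SE 0.085, adjusted p = 0.0322 from edgeR). KIF11 was at 6.54, 5.12 and 6.78 CPM, which overlapped siCtrl (0.37, SE 0.13, adjusted p = 0.0396 from edgeR). The call of KIF11 was lost without siCtrl replicate 1 or 2 or siNTRK2 replicate 1 or 3 (adjusted p from 0.0505 to 0.266), and that of KIF22 without siCtrl replicate 2 or 3 or siNTRK2 replicate 2 or 3 (0.0626 to 0.143). The call of KIF15 was lost without siNTRK2 replicate 1 (adjusted p = 0.0812). Between 10 and 11 of the 12 calls held when any 1 library was left out.

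Of the 17 transport kinesins 5 were higher and 1 was lower with siNTRK2, against 11.1% and 10% of all tested genes, and their median log2 fold change was 0.13. KIF1B, which moves lysosomes, mitochondria and synaptic vesicle precursors, was at 64.8, 74.3 and 64.6 CPM with siCtrl and rose to 82.8, 80.3 and 75.9 CPM (log2 fold change 0.23, SE 0.056, adjusted p = 0.00408 from edgeR). KIF13A, a motor of recycling endosomes, rose by a similar amount (0.21, SE 0.052). KIF5B rose to 231.8, 239.5 and 244.1 CPM (0.17, SE 0.05), KIFC3 by 0.2 and KIF3A by 0.25 on the log2 scale, each without overlap. The call of KIF5B was lost without siCtrl replicate 1 (adjusted p = 0.156) or siNTRK2 replicate 3 (0.0841), and that of KIFC3 without siNTRK2 replicate 1 (0.0908). KIF3A lost its call without any 1 of siCtrl replicates 1 and 3 and siNTRK2 replicates 1, 2 and 3 (0.0651 to 0.222).

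KIF5C was the transport kinesin that fell, and the only one past the fold cutoff, against 0.567% of all tested genes in that direction. It fell to 0.242, 0.181 and 0.41 CPM with siNTRK2, 2.83-fold below siCtrl (log2 fold change -1.5, SE 0.39, adjusted p = 0.00658 from edgeR). These levels, on 9 to 22 counts per library, lay below all siCtrl-transfected senescent libraries and overlapped those of proliferating cells. KIF1A was at 0.856, 1.45 and 0.819 CPM and was not called (-0.11, SE 0.27). Nor were KIF1C, at 375.9, 330.5 and 357.2 CPM, or KIF3B, at 109.8, 109.9 and 101.8 CPM. KIF7 and KIF2A rose by 0.27 and 0.2 on the log2 scale, and the call of KIF2A was lost without siCtrl replicate 1 (adjusted p = 0.164) or siNTRK2 replicates 1 (0.0746) or 3 (0.0692).

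**Figure D4:**
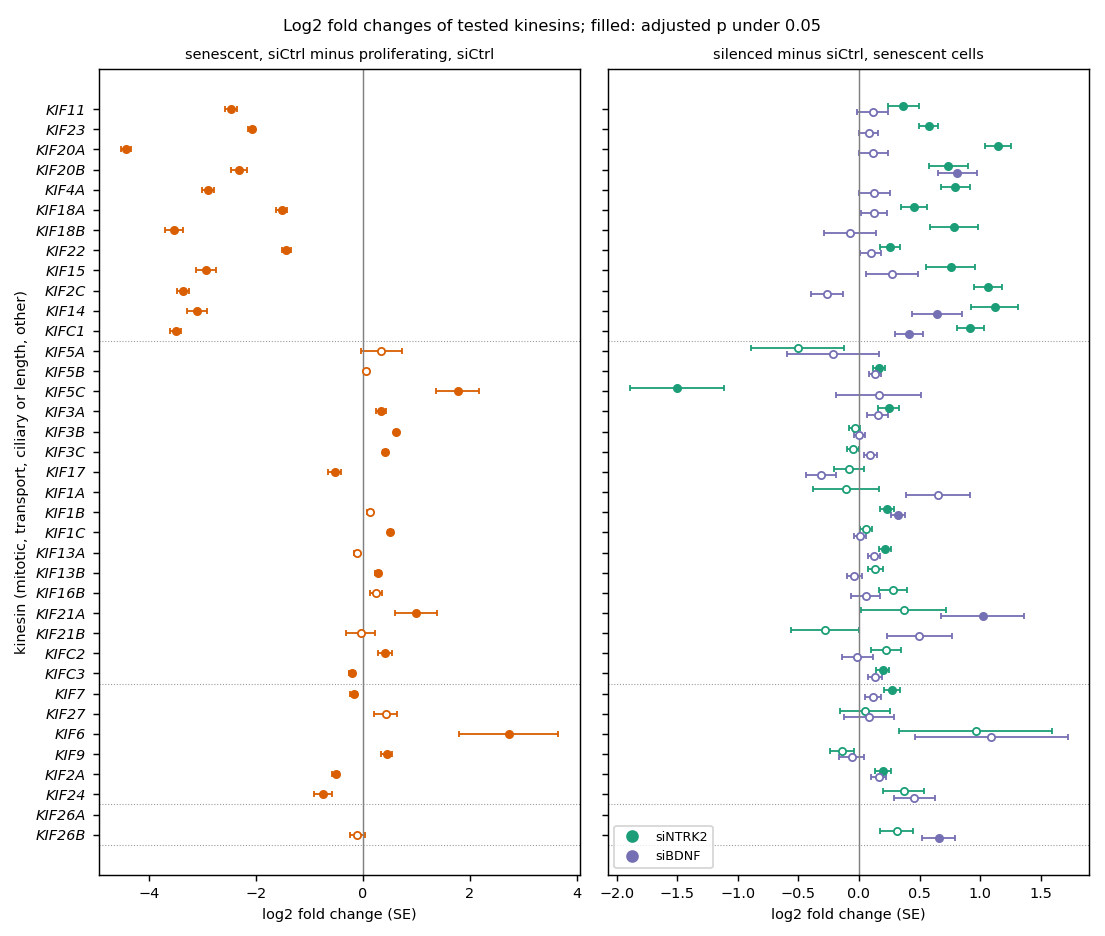
Log2 fold change with SE of the tested kinesins, senescent against proliferating cells on the left and siNTRK2 or siBDNF against siCtrl in senescent cells on the right, with filled points at an adjusted p under 0.05 and dotted lines between the classes. KIF26A, and on the left KIF1A, are not drawn because their fold rests on libraries at or near 0 counts. KIF6 is drawn although it also rests on few counts, 3 in the proliferating and 24 in the siCtrl-transfected senescent libraries together. The 12 mitotic kinesins lie left of 0 in senescence and right of 0 with siNTRK2.

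Silencing BDNF was compared with siCtrl in the same way. This comparison, the one of siNTRK2 and that of senescence share the siCtrl-transfected senescent libraries, so their values are given side by side and were not correlated. With siBDNF 3 of 12 mitotic kinesins were higher and none was called lower, against 10.3% and 10.2% of all tested genes, and the median log2 fold change was 0.12. At an unadjusted p under 0.05 edgeR also gave 3 higher and 0 lower, and DESeq2's Wald test called 3. None of the 12 was past the fold cutoff.

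KIF20B was at 3.26 to 3.81 CPM with siBDNF, above all siCtrl libraries (log2 fold change 0.81, SE 0.16, adjusted p = 6.5e-04 from edgeR). KIF14 was at 1.46, 1.42 and 1.34 CPM (0.64, SE 0.21, adjusted p = 0.0271 from edgeR). KIFC1 was at 2.5, 3.07 and 2.79 CPM (0.42, SE 0.12, adjusted p = 0.0117 from edgeR). Among the 42 genes described here, these 3 and KIF1B were the ones higher with both siRNAs. The call of KIF14 was lost without siCtrl replicate 3 (adjusted p = 0.122) or any 1 of the siBDNF libraries (0.0522 to 0.081), and that of KIFC1 without siBDNF replicate 2 (0.0938), so that 1 mitotic call, that of KIF20B, was left without siBDNF replicate 2.

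The other 9 mitotic kinesins had log2 fold changes from -0.26 to 0.27 with siBDNF. KIF20A was at 3.26, 2.33 and 2.44 CPM (0.12, SE 0.12, adjusted p = 0.559 from edgeR), where 1 library lay above and the others within the siCtrl range. KIF2C was at 2.29, 2.42 and 2.09 CPM (-0.26, SE 0.13, adjusted p = 0.166 from edgeR). KIF4A was at 2.65, 3.41 and 2.95 CPM (0.13), KIF23 at 8.7, 9.66 and 9.4 CPM (0.08) and KIF11 at 5.77, 5.08 and 4.81 CPM (0.11). All of these overlapped siCtrl, as did KIF22 at 10.4, 10.5 and 10.5 CPM (0.1), KIF18A at 4.09 to 5.24 CPM (0.13), KIF18B at 0.915, 1.3 and 0.873 CPM (-0.07) and KIF15 at 0.732, 1.03 and 0.873 CPM (0.27).

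Of the transport kinesins 2 were higher with siBDNF. KIF1B rose to 85.3, 87.1 and 81.9 CPM (log2 fold change 0.32, SE 0.056, adjusted p = 1.87e-04 from edgeR), without overlap. KIF21A was at 0.694, 1.41 and 0.398 CPM with siCtrl and rose to 1.8, 1.8 and 1.51 CPM (1.02, SE 0.34, adjusted p = 0.0347 from edgeR). It was the single kinesin past the fold cutoff, against 0.372% of all tested genes higher and 0.237% lower. The siCtrl libraries of KIF21A spread widely, and its call was lost without siCtrl replicate 1 or 3 or any 1 of the siBDNF libraries (adjusted p from 0.0561 to 0.199), which left 1 transport call and 0 past the cutoff. Without siCtrl replicate 2 the transport calls numbered 5. Outside these classes KIF26B rose from 3.28, 3.41 and 3.98 CPM to 5.28, 6.02 and 5.48 CPM (0.66, SE 0.14, adjusted p = 0.00102 from edgeR). KIF5C was at 1.25, 0.797 and 0.684 CPM with siBDNF and was not called (0.16, SE 0.35), and neither was KIF1A at 1.28, 2.04 and 1.86 CPM (0.65, SE 0.26, adjusted p = 0.0855 from edgeR).

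**Figure D5:**
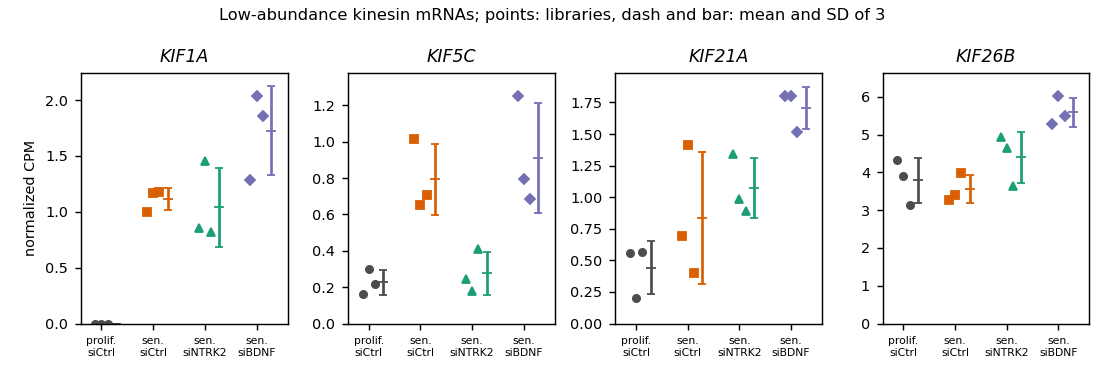
Normalized CPM of KIF1A, KIF5C, KIF21A and KIF26B by group, with points for libraries and a dash with a bar for the mean and SD of 3 libraries. KIF1A is at 0 in proliferating cells, KIF5C is low in proliferating and siNTRK2 libraries, and KIF21A spreads widely among the siCtrl-transfected senescent libraries.

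The siRNAs were then compared directly, which tests the difference between their effects. Of 12 mitotic kinesins 7 were higher with siNTRK2 than with siBDNF and none was lower, against 8.84% and 7.86% of all tested genes, with a median log2 difference of 0.49. At an unadjusted p under 0.05 edgeR gave 9 higher and 0 lower, and DESeq2's Wald test called 7. KIF2C (1.33, SE 0.12, adjusted p = 9.38e-09 from edgeR) and KIF20A (1.03, SE 0.11, adjusted p = 9.62e-08 from edgeR) were past the fold cutoff, against 0.335% of all tested genes. KIF18B (0.86), KIF4A (0.67), KIFC1 (0.5), KIF23 (0.49) and KIF18A (0.33) were also higher, all without overlap. The call of KIF18A was lost without siNTRK2 replicate 2 or 3 or siBDNF replicate 1 or 3 (adjusted p from 0.0548 to 0.149). KIF20B was nearly level between the siRNAs (-0.07, SE 0.15), and KIF11, KIF22, KIF15 and KIF14 were not called (0.16 to 0.49).

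Among transport kinesins 2 of 17 were lower with siNTRK2 than with siBDNF. KIF5C was 3.17-fold lower (log2 difference -1.67, SE 0.39, adjusted p = 0.00349 from edgeR) and past the fold cutoff, against 0.827% of all tested genes. KIF3C was at 47.7, 46.6 and 48.3 CPM with siNTRK2 and at 51.7, 52.9 and 52.9 CPM with siBDNF (-0.14, SE 0.05, adjusted p = 0.0476 from edgeR). The groups of KIF3C did not overlap, but its call was lost without any 1 of these 6 libraries (0.0744 to 0.154). The summed mitotic level was 65.2 to 65.8 CPM with siNTRK2 and 46.1 to 49.5 CPM with siBDNF, and the summed transport level was 1010 to 1061 and 1000 to 1029 CPM.

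Proteins that work with each class of motor were counted for comparison. Of 15 mitotic partners, among them CENPE, a kinesin without a KIF symbol, 14 were lower in senescent cells, against 28.3% of all tested genes (median log2 fold change -2.6). The survivin gene BIRC5 and PRC1, the partner of KIF4A, were lower by 10.7-fold and 10.1-fold. With siNTRK2 14 of the 15 were higher, against 11.1% (median 0.63), among them PLK1 by 2.16-fold. With siBDNF 2 were higher and 1 lower, near the shares of 10.3% and 10.2% over all tested genes (median -0.02). The kinesin CENPE (0.80, adjusted p = 0.017 from edgeR) and CKAP5 (0.19) were higher, and BIRC5 (-0.25) was lower. In the direct comparison 10 were higher with siNTRK2, against 8.84%. Of 13 other proliferation genes 12 were lower in senescent cells, 7 were higher and 1 lower with siNTRK2, and 2 were higher with siBDNF, beside the same shares. The median log2 fold change of these 13 was 0.24 with siNTRK2 and -0.03 with siBDNF. MKI67, the gene of the Ki-67 antigen, had the largest rise of the 13, 3.28-fold with siNTRK2 and 1.88-fold with siBDNF.

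For the partners of the transport motors, 29.8% of all tested genes were called higher and 28.3% lower in senescent cells. Of 22 cargo adaptors and light chains, 13 were higher and 4 lower (median 0.28). The smallest adjusted p were those of the kinesin-1 light chain KLC1 (0.53) and the mitochondrial adaptors TRAK2 (0.43) and TRAK1 (0.49). With siNTRK2 3 were higher and 2 lower, near the 11.1% and 10% of all tested genes, and with siBDNF 3 were higher and 4 lower, beside 10.3% and 10.2%, among them TRAK2 (-0.35). Of 23 subunits and regulators of dynein, the motor that runs the other way, 13 were higher and 5 lower in senescent cells (median 0.18), DYNLT3 by 2.01-fold. With siNTRK2 3 of the 23 were higher and 5 lower, against 11.1% and 10% of all tested genes. With siBDNF 5 were higher and 6 lower, against 10.3% and 10.2%. The dynein heavy chain DYNC1H1 was higher with siNTRK2 (0.35) and with siBDNF (0.41). DYNLRB1 was lower with siNTRK2 (-0.35), and DCTN2 was lower with siBDNF (-0.21). Of 16 intraflagellar transport genes, which move with kinesin-2 in cilia, 2 were higher and 9 lower in senescent cells (median -0.2). Among the kinesin-2 motors, KIF3A, KIF3B and KIF3C were higher and KIF17 was lower. With siBDNF 6 of the 16 were lower, against 10.2%. Of 14 tubulins, the building blocks of the track, 6 were lower in senescent cells, TUBB and TUBA1B by 1.79-fold and 1.8-fold, and 4 were higher. With siNTRK2 0 of the 14 were higher and 1 was lower, against 11.1% and 10% of all tested genes. With siBDNF 1 was higher and 2 were lower, against 10.3% and 10.2%. TUBB3, the neuronal beta-tubulin, fell with siNTRK2 (-0.41) and rose with siBDNF (0.18), while TUBB (-0.17) and TUBA1B (-0.15) fell with siBDNF.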

How the data were processed

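Per the labels and the study's methods, RNA was made into stranded mRNA libraries, and the authors trimmed adapters with cutadapt, aligned reads to hg19 with STAR 2.4.0j and deposited whole-number counts per gene from featureCounts 1.6.4, not normalized. Whether featureCounts used the strand is not given in the sources used here, so overlapping genes are uncertain. Of 57773 identifiers, 55538 matched a symbol.

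Differences were tested with edgeR 4.0.16 in R 4.3.3 (TMM, filterByExpr, quasi-likelihood test, 1 term per group, all 12 libraries, Benjamini-Hochberg adjustment). A SE is the size of the log2 fold change over the root of the F statistic. Alternatives included DESeq2 1.42.0, other scalings and filters, and leaving out each library. The model was tested on simulated data. Lengths came from the GENCODE annotation on GRCh37.

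The classes, lists and members were chosen with earlier results of these data known. 1 marker of another cell type is not reported here. Values in every library are given for members past the fold cutoff in any comparison, called with both siRNAs alike or called between the siRNAs, and for the 3 highest per length, up to 10 a class by adjusted p. The study describes its experiments in general as repeated independently, but the labels do not tie a library to a culture, so p-values measure the spread between libraries, which may be in part technical. Totals of 31567912 to 72328151 counts put 3 counts at 0.0427 to 0.0915 CPM, and intervals and floors cover counting error only. Libraries of a group differed by more than counting noise (chi-square of 3.92 to 13.6 per gene).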

Additional observations from a re-analysis of the deposited data

Results flagged for a closer look

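The effects of siNTRK2 and siBDNF differed by the direct test for 9 kinesins. KIF2C (log2 difference 1.33), KIF20A (1.03), KIF18B (0.86), KIF4A (0.67), KIFC1 (0.50), KIF23 (0.49) and KIF18A (0.33) were higher with siNTRK2 in all 3 libraries than in any siBDNF library. KIF5C (-1.67) and KIF3C (-0.14) were lower with siNTRK2 in all 3 libraries. The calls of KIF18A and KIF3C had the largest adjusted p of the 9, 0.0315 and 0.0476 from edgeR's test.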

How the results depend on the processing

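Of 64 called differences of single kinesins, 764 of 824 values under the alternatives kept direction and side of the threshold, 60 lost the call, in 16 of the 64 differences, and 0 turned. The 12 mitotic calls of senescence held under every alternative tried, and those of siNTRK2 numbered 9 with only the compared groups in the fit. KIF2A and KIF24 could also be counted as mitotic. Both were called lower in senescence, short of the fold cutoff. With siNTRK2 KIF2A was called higher and KIF24 was not called, and with siBDNF neither was called. KIF21A, KIF21B, KIFC2 and KIFC3 could also be left out of the transport class. In senescence KIF21A and KIFC2 were among its 9 calls higher and KIFC3 among its 2 calls lower, and KIF21B was not called. At an adjusted p under 0.01, the siNTRK2 transport calls fell to 3, the siBDNF calls to 1 mitotic, 1 transport and 0 past the fold cutoff, and the transport calls between the siRNAs to 1. The 2 siBDNF transport calls became 6 with library totals, 5 with only the compared groups and 1 without KIF21A, KIF21B, KIFC2 and KIFC3, and the 2 between the siRNAs became 5 with DESeq2, 4 with library totals and 4 with only the compared groups. With 1 library left out, the siBDNF calls ranged from 1 to 3 mitotic, 1 to 5 transport and 0 to 1 past the cutoff, and the transport calls between the siRNAs from 1 to 2. The cause of these shifts was not tested. Libraries with the same replicate number did not deviate together (mean correlation 0.000686, 0 of 18 pairs over 0.1, 4 of 12 libraries closest to their own number). With the replicate block the mitotic calls were 12 in senescence, 11 with siNTRK2 (KIF11 at an adjusted p of 0.0532 from edgeR), 3 with siBDNF and 7 between the siRNAs, and the transport calls 13, 6, 2 and 3. Another scaling moved the median of all genes by at most 0.057 on the log2 scale. KIF1A, KIF5C, KIF6, KIF21A and KIF26A lay near the depth limit.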
